A study of Mus musculus with 2 samples.

Results

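Epithelial junction proteins hold neighbouring cells together and set what passes between them. The junction genes described here were the probes, control spots aside, whose gene name on the array belongs to the claudins, the zonula occludens proteins (Tjp), occludin (Ocln), cingulin (Cgn), junctional adhesion molecule A (F11r), the numbered cadherins (Cdh), the desmogleins (Dsg) and desmocollins (Dsc), desmoplakin (Dsp), plakoglobin (Jup), the plakophilins (Pkp) or the connexins (Gja, Gjb and Gjc). This rule took 132 of 41174 probes, which stand for 83 of 27617 genes on the array. By junction type, 38 probes of 29 genes belong to the tight junction, 44 probes of 23 genes to the cadherins, 28 probes of 15 genes to the desmosome and 22 probes of 16 genes to the gap junction. The rule used names only and no measured value.

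Small intestinal total RNA came from C57BL/6 mice that were 6 to 8 weeks old. One diet was food antigen-free and supplied amino acids (FAF), kept up for as many as 5 generations, and the other was conventional chow (Conv), per the labels. The labels name specific-pathogen-free and germ-free mice without saying which gave the RNA, and neither the segment of the intestine nor whether a sample came from 1 mouse or a pool is given in the sources used here. Both RNA samples were hybridised together on 2 Agilent two-colour arrays with the dyes exchanged, so there was 1 RNA sample per diet, no replicate mouse and no test between diets. The log2 ratios below are FAF over Conv, averaged over both arrays, and the ± is the distance of either array from that mean, which holds dye and hybridisation error but no spread between mice. Intensities are scaled spot intensities in arbitrary units on a linear scale. For single genes they are given with the array with FAF in Cy5 first and are compared only within a probe. Sums over a marker list are given from low to high, cover the same probes in both diets and follow the brightest of them. In whole-tissue RNA, fewer cells of a type and less RNA per cell cannot be told apart.

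Tight junctions are belts near the apex of epithelial cells. In them claudins form the strands that seal the space between cells or open it to chosen ions and water, occludin and junctional adhesion molecule A lie in the same membrane, and zonula occludens proteins and cingulin tie these to actin. Classical cadherins bind cell to cell in the adherens junction through catenins, and desmosomal cadherins bind through plakoglobin, plakophilins and desmoplakin to keratin filaments. Connexins form the channels of gap junctions, through which neighbouring cells exchange small molecules. In the small intestine, claudin 2 and claudin 15 are known as pore-forming claudins that let sodium pass between cells.

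The promoters of the 2 genes that were lowest in FAF and measured in both diets, and of the 2 tight junction genes that were highest, are shown as RefSeq gives them in build GRCm38.p6. Each runs from 250 bases before the annotated start to 50 bases from it on, 5′ to 3′ on the gene's strand. Capitals mark every match to 1 of 9 short motifs on either strand.
Cldn2 promoter, chrX:139800558-139800857, plus strand: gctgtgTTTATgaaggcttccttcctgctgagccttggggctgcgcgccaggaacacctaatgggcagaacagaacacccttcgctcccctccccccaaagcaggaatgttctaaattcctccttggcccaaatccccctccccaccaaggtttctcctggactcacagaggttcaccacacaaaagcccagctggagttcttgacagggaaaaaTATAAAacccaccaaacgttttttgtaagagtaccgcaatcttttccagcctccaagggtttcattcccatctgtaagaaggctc
Gjb2 promoter, chr14:57104653-57104952, minus strand: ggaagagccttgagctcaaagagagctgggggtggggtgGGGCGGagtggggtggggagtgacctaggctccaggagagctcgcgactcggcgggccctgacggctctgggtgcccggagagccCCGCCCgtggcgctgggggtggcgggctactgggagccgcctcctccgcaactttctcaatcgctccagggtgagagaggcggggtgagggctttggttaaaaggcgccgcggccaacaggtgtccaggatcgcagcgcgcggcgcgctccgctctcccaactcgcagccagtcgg
Cgn promoter, chr3:94786433-94786732, minus strand: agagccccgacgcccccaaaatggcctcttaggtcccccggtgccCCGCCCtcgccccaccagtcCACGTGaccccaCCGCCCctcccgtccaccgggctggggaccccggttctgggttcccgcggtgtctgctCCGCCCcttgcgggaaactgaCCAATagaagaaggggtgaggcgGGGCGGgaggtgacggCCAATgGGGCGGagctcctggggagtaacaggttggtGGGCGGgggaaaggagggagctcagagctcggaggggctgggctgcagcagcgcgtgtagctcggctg
Cldn15 promoter, chr5:136967619-136967918, plus strand: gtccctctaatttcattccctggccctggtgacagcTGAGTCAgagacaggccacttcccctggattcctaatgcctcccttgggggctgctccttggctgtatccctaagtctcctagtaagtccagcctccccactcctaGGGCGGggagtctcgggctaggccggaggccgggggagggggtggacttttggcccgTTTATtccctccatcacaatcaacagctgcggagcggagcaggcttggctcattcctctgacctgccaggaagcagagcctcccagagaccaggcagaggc

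The motifs searched were the TATA box TATAAA, the CCAAT box CCAAT, the GC box GGGCGG, the CDX core TTTAT, the GATA motif AGATAA, the E-box CACGTG, the AP-1 motif TGANTCA, the HNF4 motif CAAAGTCCA and the HNF1 motif, a palindrome of 13 letters. The Cldn2 promoter held TATAAA 35 bases before its start, a motif in 13.6% of all 32851 promoters of the table, and TTTAT at 2 places, of which 1 overlaps that TATA box on the other strand. TTTAT stood in 40.0% of all promoters and also in that of Cldn15. GGGCGG, in 35.7% of all promoters, was at 2 places in Gjb2, at 6 in Cgn and at 1 in Cldn15. The Cgn promoter also held CCAAT at 2 places (37.4% of all promoters) and CACGTG once (7.15%), and that of Cldn15 held TGANTCA once (7.81%). AGATAA (11.2%), the HNF4 motif (0.475%) and the HNF1 motif (0.0091%) had no match in these 4 windows. No motif was shared by Cldn2 and Gjb2, the genes lower in FAF. The G and C content was 51.3% for Cldn2, 70.0% for Gjb2, 70.3% for Cgn and 61.0% for Cldn15, beside a median of 52.7% over all promoters. Of the 83 junction genes, 49 had an entry in the table, with 66 promoters.

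For Cgn the result depended on the probe, and for Gjb2 1 probe was not well above background and gave no result. The first 30 of the 60 bases of the probes of Cgn, Gjb2 and Cldn2 are given too, 5′ to 3′. Their positions are in build mm9, as given with the array.
Cldn2 probe, chrX:136345244-136345303: agtgtggaacatctgtgaccaaggtgttgt
Gjb2 probe, chr14:57717629-57717688: caagttgaaccattaccactatgccttatg
Gjb2 probe not well above background, chr14:57719067-57719126: tttacatcatgtacaatggcttcttcatgc
Cgn probe with the highest ratio, chr3:94579729-94579788: tacccagtgatgcagcaggtgtcttctgtc
Cgn probe with the middle ratio, chr3:94564900-94564959: gctttatttctttaatatttaaccatatgg
Cgn probe with the lowest ratio, chr3:94577435-94577494: agacctctgaggagacagggcattggcaga

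A probe counted as measured when 1 diet or both stood well above background on each of the arrays, and a gene was represented by its brightest measured probe. Of the 132 junction probes 61 were measured, which left 41 genes with a value and 42 without. Of the 41 genes, 39 were well above background in both diets, Cldn8 in Conv alone and Cldn22 in FAF alone. The ratio of Cldn22 was still near 0 (-0.05 ± 0.10), with opposite signs on the arrays. The genes without a measured probe were Cldn1, Cldn6, Cldn11, Cldn13, Cldn16, Cldn17, Cldn18, Cldn19 and Cldn26, 17 of the 23 cadherins, 7 of the 9 desmosomal cadherins (Dsc1, Dsc3, Dsg1a, Dsg1b, Dsg1c, Dsg3 and Dsg4) and 9 of the 16 connexins. The desmosomal cadherins without a value are mainly known from stratified epithelium such as skin. Dsc2 and Dsg2, the pair known from simple epithelium, were both measured. RefSeq gives the array's Cldn25 as Cldnd1 and its Cldn26 as Tmem114, so these probes report related proteins and not claudins in the strict sense.

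No junction gene differed 2-fold between the diets on the mean of the arrays as processed here, though Cldn8 has only a bound. By that limit, with at least 1.5-fold the same way on both arrays, 1.53% of all 17160 measured genes lay higher in FAF and 0.88% lay lower. On the scanner software's own ratio, Cldn2 and Cldn8 were past the same limit, lower in FAF, beside 2.04% of all genes. At a limit of 1.5-fold with both arrays the same way, 1 of the 41 measured junction genes was higher in FAF, the tight junction scaffold Cgn, beside 4.52% of all measured genes. At the same limit 2 were lower, the claudin Cldn2 and the connexin Gjb2, beside 3.59% of all measured genes. The junction genes' shares were 2.44% higher and 4.88% lower, close to those of all genes, and 92.7% of them stayed within 1.5-fold, beside 91.9% of all genes. The median log2 ratio was 0.05 over the junction genes and -0.00095 over all genes. By type it was 0.04 in the tight junction, 0.12 in the cadherins, 0.11 in the desmosome and 0.06 in the gap junction.

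**Figure D1:**
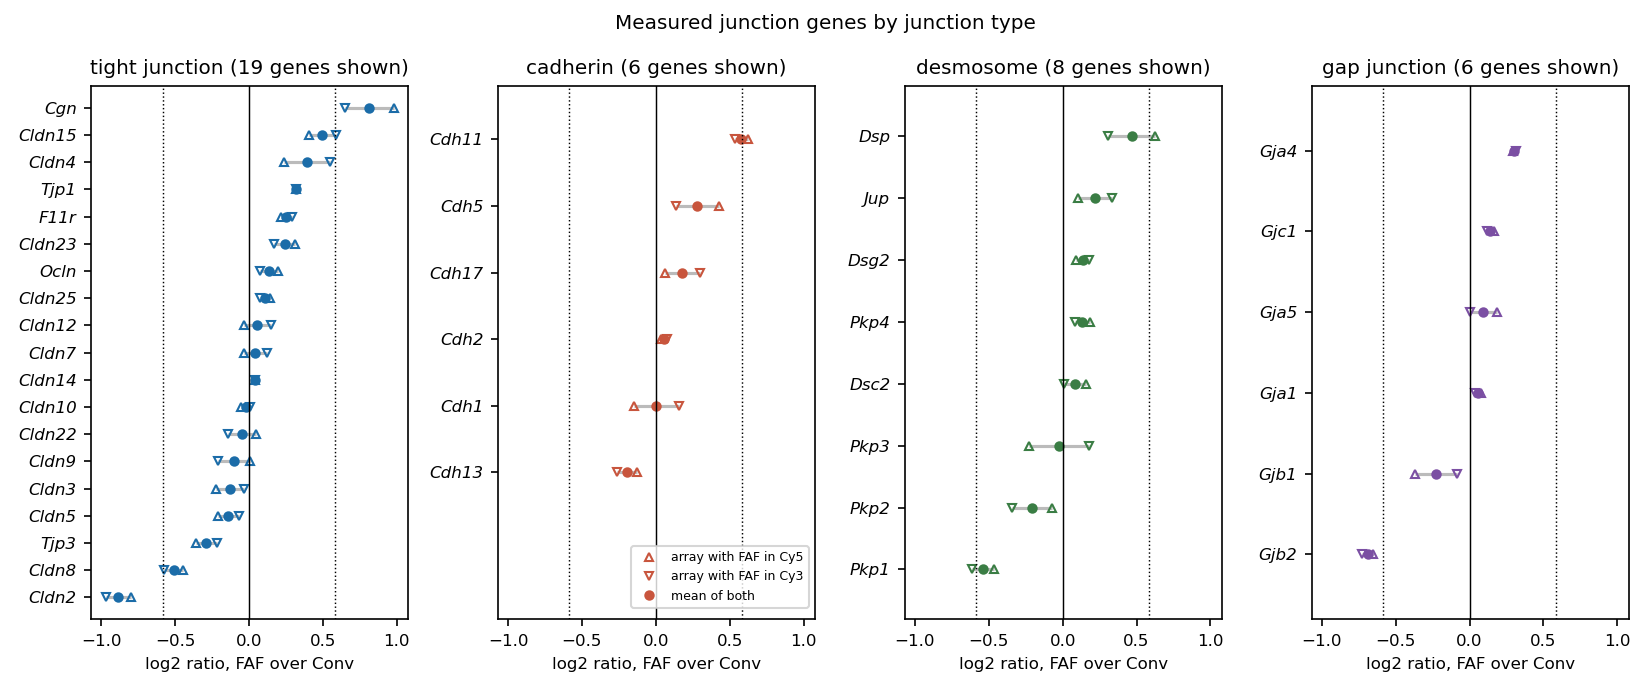
Log2 ratios of FAF over Conv for 39 of the 41 measured junction genes, in 1 panel per junction type. Filled points are means of both arrays, triangles the arrays, and dotted lines 1.5-fold either way. Cgn lies above the upper line, Cldn2 and Gjb2 lie below the lower one, and Cdh11 lies just inside at 0.58.

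Small ratios kept their sign on both arrays in most cases. Of the 41 genes, 22 were above 0 on both arrays (53.7%), beside 38.7% of all genes, and 12 were below 0 on both (29.3%), beside 39.5% of all genes. The other 7 had opposite signs. The distance of either array from the mean had a median of 0.07 over the junction genes and 0.06 over all genes, and the ratio's size without its sign had a median of 0.18 over the junction genes and 0.16 over all genes. Across the 41 genes, the arrays' ratios correlated with a Pearson r of 0.84 and a Spearman rho of 0.79, which describes genes read from the same RNA. In the plot of cumulative shares the curve of the junction genes lies to the right of that of all genes through its middle part.

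**Figure D2:**
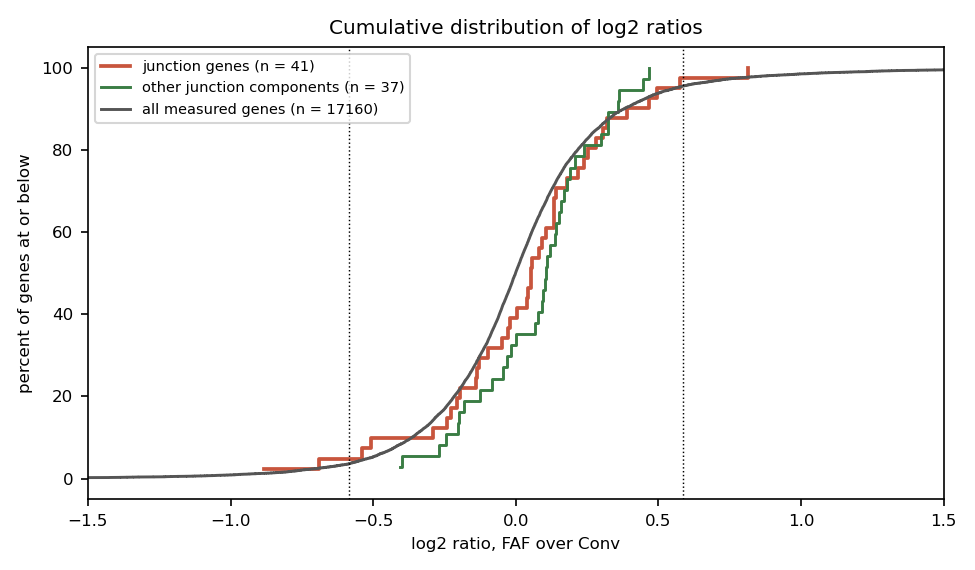
Cumulative percent of genes at or below each log2 ratio of FAF over Conv, for the 41 measured junction genes, 37 other measured components of junctions, and all 17160 measured genes. Dotted lines mark 1.5-fold. The medians are 0.05, 0.11 and -0.00095, and the axis ends at a log2 ratio of 1.5 either way.

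Among the claudins, Cldn2 was lower in FAF and Cldn15 higher, while the other claudins measured in both diets stayed nearer to 0. Cldn2, the pore-forming claudin of crypts and leaky epithelia, had intensities of 515 and 495 in FAF and 896 and 969.9 in Conv. Both FAF values lay below both Conv values, for a log2 ratio of -0.88 ± 0.09, which is 1.85-fold lower in FAF. Cldn15, the other pore-forming claudin, had 24825 and 26430.3 in FAF and 18715 and 17613 in Conv. All values of FAF were again on one side, here above Conv, with a log2 ratio of 0.50 ± 0.09, or 1.41-fold. The 2 sodium pores of this tissue thus lay on opposite sides of 0 on both arrays. Each of them has a single probe on the array.

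Cldn8, a barrier-forming claudin best known from the distal gut and kidney, had 73.8 and 75.9 in FAF and 101 and 113 in Conv. It was not well above background in FAF, so its difference is a bound, at least 1.42-fold lower in FAF (log2 ratio -0.51 ± 0.06). At such low intensity the offset added in background correction pulls ratios towards 0, and the scanner software's own ratio, which has no such offset, was -2.12 for this gene. That ratio is not a better estimate, because its FAF side was not well above background. For Cldn2 the software's ratio was -1.02.

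The barrier-forming claudins Cldn3, Cldn4 and Cldn7 did not share a direction. Cldn7 had 61202 and 65737 in FAF and 62809 and 60453 in Conv, and its arrays gave opposite signs (0.04 ± 0.08). Cldn3 had 15334 and 16469 in FAF and 17887 and 16891 in Conv (-0.13 ± 0.09). Cldn4 had 559 and 581 in FAF and 475 and 398 in Conv (0.39 ± 0.16), with FAF above Conv on both arrays but arrays that differed by more than for most junction genes. Among the others, Cldn23 was at 0.24 ± 0.07, Cldn12 at 0.05 ± 0.09 with opposite signs, and Cldn5, the claudin of blood vessels, at -0.14 ± 0.07. The remaining claudins, Cldn9, Cldn10, Cldn14, Cldn22 and Cldn25, ranged between -0.10 and 0.11. All of these but Cldn25 were dim, with intensities between 80.5 and 150. The lowest signals well above background were 69.4 and 70.7 on the arrays, and near them the offset pulls ratios towards 0. On the software's ratio these dim claudins ranged between -0.31 and 0.11. They are included in the counts and median that follow. Over all 14 measured claudins, 5 were above 0 on both arrays (35.7%, beside 38.7% of all genes), 4 were below 0 on both (28.6%, beside 39.5% of all genes), and the median was 0.01.

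**Figure D3:**
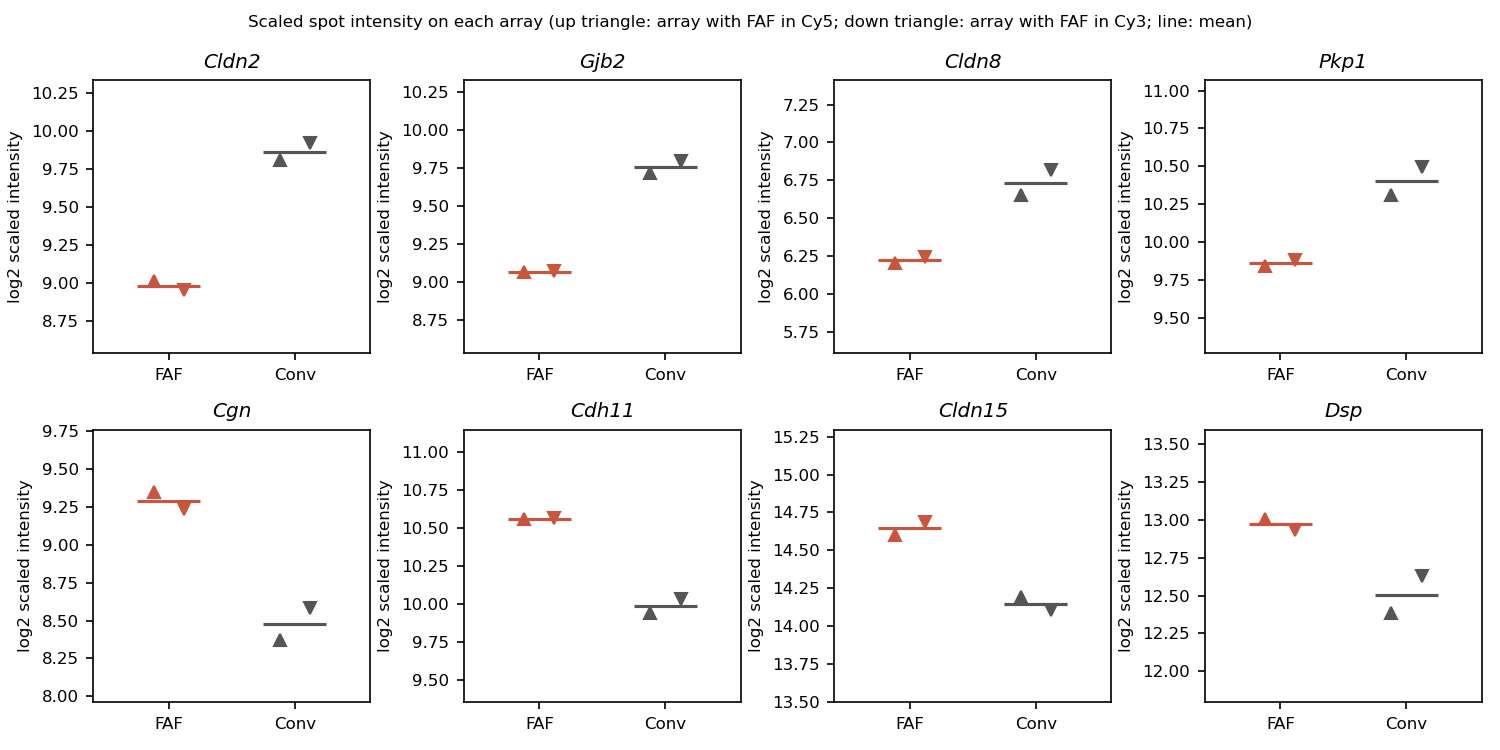
Log2 scaled intensity of 8 junction genes on each array, FAF left of Conv. Up triangles are the array with FAF in Cy5, down triangles the array with FAF in Cy3, and lines their mean; each panel has its own range of values and a common span. Cldn2, Gjb2, Cldn8 and Pkp1 have both FAF values below both Conv values, and Cgn, Cdh11, Cldn15 and Dsp have both above. These are the junction genes with the largest ratios in size, and others, among them Tjp1, Tjp3 and F11r, show such a gap too. The share of all genes that do was not counted, and the arrays repeat the same RNA.

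The other tight junction proteins split by member. Tjp1, the first zonula occludens scaffold, had 713 and 686 in FAF and 571 and 551 in Conv (0.32 ± 0.00), with FAF above Conv on both arrays. Tjp3, a relative of Tjp1, had 6109 and 6275 in FAF and 7851 and 7292 in Conv (-0.29 ± 0.07), with FAF below Conv on both arrays. These scaffolds thus lay on opposite sides of 0, and both stayed within 1.5-fold. F11r, an adhesion protein of the immunoglobulin family, had 27904 and 29563 in FAF and 24034 and 24192 in Conv (0.25 ± 0.04). Ocln had 875 and 825 in FAF and 763 and 784 in Conv (0.13 ± 0.06), and its other measured probe was at 0.00.

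Cgn, which links the zonula occludens proteins to the actin and myosin belt, was the highest junction gene, on 1 of its 3 probes. That probe had 652 and 602 in FAF and 331 and 384 in Conv, for a log2 ratio of 0.81 ± 0.17 or 1.76-fold. The array design takes it from an Ensembl transcript model. The 2 probes designed on the RefSeq messenger RNA gave 405 and 480.1 in FAF against 364 and 325 in Conv (0.36 ± 0.20), and 162 and 169 in FAF against 176 and 164 in Conv (-0.03 ± 0.08). The probes of Cgn therefore differed by 0.84 in log2, and the mean over its probes does not reach 1.5-fold. The Ensembl probe has no forward reading frame free of a stop codon, so it cannot lie wholly inside coding sequence. Each RefSeq probe has 1 such frame, and the Cldn2 probe has none either. Whether the Ensembl probe reads an intron, or the probes read different transcripts, was not tested.

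**Figure D4:**
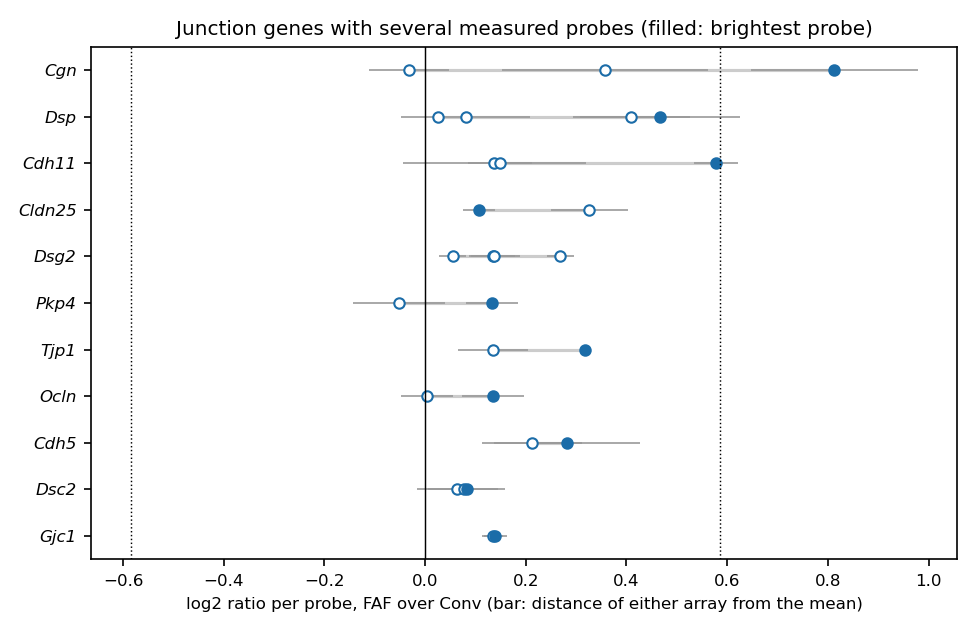
Log2 ratio of FAF over Conv of every measured probe of 11 of the 12 junction genes with more than 1. Filled points are the brightest probe, which represents the gene, open points the others, bars the distance of either array from the mean, and dotted lines 1.5-fold. Cgn spans 0.84, and Dsp and Cdh11 each span 0.44, with the brightest probe highest in all 3.

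Of 12 junction genes with several measured probes, 11 had probes within 0.5 in log2 and the median range was 0.18. The sign differed between probes in 2 genes, Cgn and Pkp4. Cdh11 and Dsp had the next widest ranges, at 0.44 each. In both, the brightest probe had the highest ratio and the dimmest lay nearer 0.

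Among the classical and related cadherins, the epithelial members had ratios close to 0. Cdh1, the E-cadherin of every epithelial adherens junction, had 11596 and 13274 in FAF and 12876 and 11901 in Conv (0.00 ± 0.15), with opposite signs on the 2 arrays. Its probe is spotted 10 times per array, and these spots had a log2 ratio of -0.15 with an SD of 0.04 on the array with FAF in Cy5 and of 0.16 with an SD of 0.03 on the array with FAF in Cy3. The offset between the arrays was thus larger than the spread among spots of 1 array. Cdh17, the liver-intestine cadherin of enterocytes, had 6156 and 6389.8 in FAF and 5909.6 and 5201 in Conv (0.18 ± 0.12).

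The cadherins best known from other cells ranged more widely. Cdh11, known from mesenchymal cells, had 1507 and 1512 in FAF and 980.0 and 1045 in Conv, both FAF values above both Conv values. Its log2 ratio of 0.58 ± 0.04 (1.49-fold) lies just under the 1.5-fold limit, while its other probes gave 0.15 ± 0.06 and 0.14 ± 0.18. Cdh5, the cadherin of blood vessel endothelium, had 447 and 392 in FAF and 332 and 356 in Conv (0.28 ± 0.14), and its other probe was at 0.21 ± 0.10. Cdh13, a cadherin anchored by a lipid and known from vessels and muscle, had 346 and 324 in FAF and 378 and 389 in Conv (-0.19 ± 0.07). Cdh2, the neural cadherin, was at 0.05 ± 0.02. Of the 6 measured cadherins 4 were above 0 on both arrays (66.7%, beside 38.7% of all genes) and 1 was below (16.7%, beside 39.5% of all genes).

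In the desmosome, the plaque proteins lay on both sides of 0 and the cadherins close to it. Dsp, which ties the desmosome to keratin, had 8237 and 7823 in FAF and 5341 and 6324 in Conv (0.47 ± 0.16), both FAF values above both Conv values. The ratios of its 4 probes were ordered by their place in the transcript: the 2 bright ones start at bases 9266 and 8879 and gave 0.47 and 0.41, and the 2 dim ones start at bases 6803 and 5665 and gave 0.08 and 0.03. On the software's ratio, which has no offset, the same probes gave 0.46, 0.42, 0.22 and 0.10. Jup, the plakoglobin shared by desmosomes and adherens junctions, had 432 and 457 in FAF and 402 and 364 in Conv (0.22 ± 0.11).

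Pkp1, a plakophilin best known from stratified epithelium, was the lowest desmosomal gene. It had 919 and 945 in FAF and 1269.7 and 1444 in Conv, both FAF values below both Conv values, for a log2 ratio of -0.54 ± 0.07 or 1.45-fold lower. Of the markers of squamous epithelium, 4 of 8 were measured, with a median of 0.03 and summed intensities of 466 to 478 in FAF and 458 to 483 in Conv. Of these 4, Krt14 had passed the filter through FAF alone. The sums are low, and the offset pulls ratios towards 0 there, so the median near 0 is not read as no difference. Krt4, Ivl, Trp63 and Sprr3 did not stand well above background in FAF or Conv. Pkp2 had 3072 and 2767 in FAF and 3223 and 3508 in Conv (-0.21 ± 0.14). Pkp3 had 9165 and 9567 in FAF and 10738 and 8468 in Conv, with opposite signs on the arrays (-0.03 ± 0.20). Pkp4, found in adherens junctions too, was at 0.13 ± 0.05 on its brightest probe and at -0.05 ± 0.09 on the other. The desmosomal cadherins Dsg2 (0.13 ± 0.04) and Dsc2 (0.08 ± 0.08) had all measured probes above 0, those of Dsg2 between 0.05 and 0.27.

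Among the connexins, Gjb2 was lower in FAF by more than any other. It had 536 and 538 in FAF and 841 and 890.4 in Conv, both FAF values below both Conv values. The log2 ratio was -0.69 ± 0.04, which is 1.61-fold lower in FAF, and the gene's other probe did not stand well above background in FAF or Conv. Gjb1, another connexin of the beta class, which is typical of epithelium, had 142 and 169 in FAF and 183 and 179.7 in Conv. FAF was below Conv on both arrays (-0.23 ± 0.14), well within 1.5-fold.

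The alpha and gamma connexins, known from vessels, muscle and other stromal cells, were above 0 on both arrays. Gja4, a connexin of vessel endothelium, had 391 and 386 in FAF and 319.8 and 310.3 in Conv (0.30 ± 0.01). Gja1, the most widespread connexin, had 223 and 227 in FAF and 212 and 221 in Conv (0.06 ± 0.02). Its 10 spots per array gave means of 0.07 with an SD of 0.05 and of 0.04 with an SD of 0.07, so this ratio is about the size of the spread among spots. Gja5 was at 0.09 ± 0.09 and Gjc1 at 0.14 ± 0.02.

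Further components of the same junctions, listed by function, stayed within 1.5-fold. Of 38 such genes 37 were measured, none passed either limit, and the median log2 ratio was 0.11. On both arrays 20 were above 0 (54.1%, beside 38.7% of all genes) and 10 were below 0 (27.0%, beside 39.5% of all genes). The highest was Pals1 (Mpp5 on the array), a polarity protein bound to the tight junction, at 0.47 ± 0.08, and the lowest was Amot, a regulator of the apical actin belt, at -0.41 ± 0.13. The catenins Ctnnb1 (0.30 ± 0.17), Ctnna1 (0.15 ± 0.06) and Ctnnd1 (0.14 ± 0.08), which bind the cadherin tail, were above 0. Cgnl1, the relative of cingulin, was at -0.27 ± 0.00 and Lsr, a protein of corners where 3 cells meet, at -0.24 ± 0.04. The direction of Cgnl1 was thus opposite to that of the brightest Cgn probe.

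Markers of the cells in the tissue differed between the RNA samples, and their part in the junction ratios was not tested. For the counts below, 38.7% of all measured genes were above 0 on both arrays and 39.5% were below. Past 1.5-fold, 4.52% were higher in FAF and 3.59% lower. All 10 markers of small intestinal epithelium were measured, with a median of 0.15 and summed intensities of 793858 to 802233 in FAF and 476764 to 579688 in Conv, and Sis and Lct, digestive enzymes of the brush border, were past 1.5-fold higher in FAF. Of these 10 markers, 5 were above 0 on both arrays and 3 below. Beside Cldn2, a claudin of crypts, 5 of 8 stem and crypt markers were below 0 on both arrays (median -0.26, sums of 5007 to 5158 in FAF and 6193 to 6385 in Conv). Of these 8, 1 was past 1.5-fold lower in FAF, 1 was above 0 on both arrays (Lgr5, 0.14 ± 0.06) and 2 had opposite signs. Also beside Cldn2, 9 of 10 cell cycle genes were below 0 on both arrays and 8 were past 1.5-fold lower in FAF (median -0.91, sums of 26515 to 26669 in FAF and 42174 to 44985 in Conv). Beside the vessel genes Cdh5 and Gja4, 8 of 9 endothelial markers were above 0 on both arrays, none of them past 1.5-fold (median 0.36, sums of 9676 to 9770 in FAF and 7741 to 7780 in Conv). Other junction genes known from vessels differed from this: Cldn5 and Cdh13 (-0.19 ± 0.07) were below 0 on both arrays, and Gja5 was at 0.09 ± 0.09. Beside Cdh11 and the alpha and gamma connexins, 9 of 9 smooth muscle markers were below 0 on both arrays, 3 of them past 1.5-fold (median -0.52, sums of 61693 to 62234 in FAF and 88759 to 97221 in Conv). This is the side opposite to Cdh11 and to those connexins, and no list of mesenchymal markers was set beside Cdh11. Adipocyte markers were lower in FAF too, 5 of 6 measured past 1.5-fold. Paneth cell markers were past 1.5-fold lower in 4 of 5, goblet cell markers in 2 of 7 and markers of enteric neurons and glia in 1 of 8. Of 7 stomach markers, the 4 measured passed the filter through FAF alone, which favours the FAF side, so their count is not read (summed intensities of 533 to 622 in FAF and 279 to 341 in Conv). Of 3 measured markers of exocrine pancreas 1 was past 1.5-fold higher in FAF, at sums of 674 to 735 in FAF and 382 to 417 in Conv, and 1 of the 3 had passed the filter through FAF alone. None of 6 measured hematopoietic markers was past 1.5-fold.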

How the data were processed

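RNA of 1 sample per diet was measured on 2 arrays, a technical dye swap, as the RNA codes in the labels show. The deposited scanner files, written by Agilent Feature Extraction 11.5.1.1 per their headers, hold the linear spot intensity of each dye and a log10 ratio of Cy5 over Cy3 by that software. The deposited value table holds the same log10 ratio, to within 5e-08, not turned for the dye swap. RNA was isolated with Trizol and labelled with the Quick Amp kit, per the labels' protocols.

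With limma 3.58.1 (R 4.3.3), log2 ratios were taken from the spots' mean intensity: normexp background correction with an offset of 50, loess within each array with control spots at weight 0, turning to FAF over Conv, and the mean of both arrays. Scaled intensities were taken after loess and quantile scaling of average intensities. Control spots and outlier flags were left out, spots of a probe were averaged, and no spot was saturated. Of 41174 probes 25438 were measured, for 17160 genes. RefSeq named 27668 probes by accession, and junction genes keep the array's name. Probe positions are in mm9, whose annotation was not used here, and promoters in GRCm38.p6. A bound sets the brighter diet against the higher of the dim probe's signal and the lowest signal well above background, from scaled intensities. Precision is limited by the number of arrays. The steps were tested on simulated data.

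Genes named with values were those past 1.5-fold, the 3 highest and 3 lowest of each junction type, and a list of the best known members. The junction genes, the lists and the markers were chosen with earlier results of these data known. The alternatives were other background corrections, normalizations, filters on dim probes, the mean over probes and each array alone. No value rests on a test. The values of 2 junction genes are not reported here.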

Additional observations from a re-analysis of the deposited data

How the results depend on the processing

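Cldn2 and Gjb2 were past 1.5-fold lower in FAF under all 10 alternatives, at log2 ratios between -1.02 and -0.80 and between -0.77 and -0.64. Cgn was past 1.5-fold higher under 9, and its ratio ranged between 0.38 and 0.98. The count of junction genes past 1.5-fold higher in FAF, 1 as reported, was 2 with a normexp offset of 10 (Cdh11 and Cgn), 3 when the array with FAF in Cy5 was used alone (Cdh11, Cgn and Dsp), 2 when the one with FAF in Cy3 was used alone (Cgn and Cldn15) and 0 with the mean over the probes of a gene. The count past 1.5-fold lower, 2 as reported, was 3 in 5 settings, with Cldn8 added under no background correction, the offset of 10, the scanner software's ratio and the value table, and Pkp1 when the array with FAF in Cy3 stood alone. The count past 2-fold lower, 0 as reported, was 2 (Cldn2 and Cldn8) with the scanner software's log ratio and 2 with the deposited value table, which holds the same ratio. On that ratio 8.41% of all genes were past 1.5-fold higher and 7.35% lower. With median centring in place of loess these shares were 4.31% and 2.58%. The median of the cadherins was 0.0033 with no filter on dim probes, which adds 17 genes not well above background, and that of the connexins was 0.0030 when only the array with FAF in Cy3 was used; the cause of the shift between arrays was not tested.

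Cldn8 ranged between -2.12 and -0.45, Pkp1 between -0.61 and -0.47, Cldn15 between 0.41 and 0.59, Dsp between 0.25 and 0.63, and Cdh11 between 0.29 and 0.63. Of 339 values of the 34 named genes under alternatives, 48 moved by more than the distance of the arrays, and 8, of 4 genes with ratios of at most 0.05 in size as reported, changed sign. Ratios of probes near background are pulled towards 0 by the offset of 50. No paired analysis was possible because there is 1 RNA sample per diet and no test. Leaving out a replicate was not possible for the same reason; each array alone stands in its place.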
